A study of Mus musculus with 4 samples.

Results

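Ferritin and the genes that handle iron in the cell were followed in exosomes, the small vesicles that cells release into their medium, from mesenchymal stem cells (MSCs) grown out of rat bone marrow. The genes were the ferritin subunits Fth1 and Ftl1, the transferrin receptor Tfrc, the iron exporter Slc40a1 and the iron regulatory proteins Aco1 and Ireb2. These 6 genes were chosen by name and were proposed with values of the same comparison in view, so their levels and differences are given as a description and are not tested. Of the 42977 rows of the gene table they held 7, because Slc40a1 was listed under 2 gene identifiers. A further 38 rows described as ferritin, most of them annotated as pseudogenes, and 69 other iron genes served for comparison, with Ftmt in both sets.

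The MSCATV-Exo group held 2 libraries from MSCs pretreated with 1 µmol/L atorvastatin (ATV), a statin that lowers cholesterol synthesis, and the MSC-Exo group held 2 libraries from MSCs given DMSO, the solvent. All cells came from male SD rats aged 6 to 8 weeks and were used at passages 3 to 4 in exosome-free medium, and the labels name no genetic change. Vesicles of several dishes were pooled in each preparation. The pretreatment is labelled 24 h in the sample characteristics and 48 h in the protocol, and the samples are registered as mouse although the growth protocol, genome build and identifiers are of rat. No label ties the 2 libraries of a group to separate animals or cultures, so every SD and SE below covers the spread between these libraries alone, which may be technical.

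Ferritin is a hollow shell of heavy (Fth1) and light (Ftl1) chains that stores iron inside the cell. The heavy chain oxidises incoming iron, and the light chain helps the iron core to form. Iron enters mainly through the transferrin receptor and leaves through ferroportin, the product of Slc40a1. When iron is scarce, the iron regulatory proteins encoded by Aco1 and Ireb2 bind iron-responsive elements, short RNA hairpins that block translation at the start of ferritin mRNAs and stabilise Tfrc mRNA at its end.

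Total gene counts were 5947020 and 5598378 in the MSCATV-Exo libraries and 5350295 and 5355098 in the MSC-Exo libraries. Ribosomal RNA rows together with LOC257642, a row named after the rRNA promoter, took 43.3% and 38.6% of them in MSCATV-Exo and 37.1% and 37.5% in MSC-Exo, a share that moved with the groups. With these rows left out of the fit, the log2 fold changes given below for Fth1 and Ftl1 were 0.69 and 0.43, against 0.68 and 0.43 with them. Of 12 MSC markers, 11 had counts in every library, among them Sparc, Vim and Col1a1, while Col1a2 stood at 0 in all 4. Counts alone do not tell cell types apart here. In each library 11 or 12 of 12 macrophage and other leukocyte markers and all 5 hepatocyte markers also had counts. The 6 exosome markers all had counts, with a median RPKM (reads scaled to gene length and library total) of 5.85 and 7.37 in MSCATV-Exo and 5.78 and 5.58 in MSC-Exo. Over the 4 libraries the median RPKM was 15.9 to 21.5 for MSC markers. Sparc, Vim and Col1a1 had the highest means of that list, at 212, 207 and 34.5 RPKM. Vcam1, Cd44 and Nt5e averaged 1.95, 3.53 and 4.09 RPKM, below the protein-coding medians of 4.12 to 4.74 RPKM. For cells that handle much iron the median RPKM was 4.87 to 6.09 for erythroid markers (Gata1 at 0 in all). It was 3.41 to 4.65 for macrophage and other leukocyte markers and 4.98 to 7.31 for hepatocyte markers.

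Fth1 and Ftl1 were among the most abundant mRNAs of these exosomes, and Fth1 stood higher in MSCATV-Exo. Fth1, on chromosome 1 of rn6 (226030940 to 226033228, plus strand), had 1550 and 1886 counts in MSCATV-Exo and 1119 and 1014 counts in MSC-Exo. Both MSCATV-Exo libraries lay above both MSC-Exo libraries, also in CPM (counts scaled to library size with TMM factors) and in RPKM. In CPM, Fth1 averaged 310.0 ± 37.2 in MSCATV-Exo and 193 ± 11.6 in MSC-Exo (SD, n = 2 each). The log2 fold change was 0.68 ± 0.20 (SE), or 1.60-fold. It ranged from 0.56 to 0.80 with any 1 library left out and from 0.57 to 0.69 over the other processing choices tried.

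Ftl1, on the same chromosome (101448190 to 101450034, minus strand), had 1394 and 1520 counts in MSCATV-Exo and 876 and 1278 counts in MSC-Exo. Counts and CPM did not overlap between the groups, but RPKM did, with 257 and 297 in MSCATV-Exo against 179 and 261 in MSC-Exo. The log2 fold change was 0.43 ± 0.23 (SE), or 1.35-fold. MSC-Exo replicate 1 held the lowest value: without it the log2 fold change was 0.16, and without MSC-Exo replicate 2 it was 0.74. The 2 libraries of MSC-Exo thus differed more for the light chain than for the heavy chain.

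**Figure D1:**
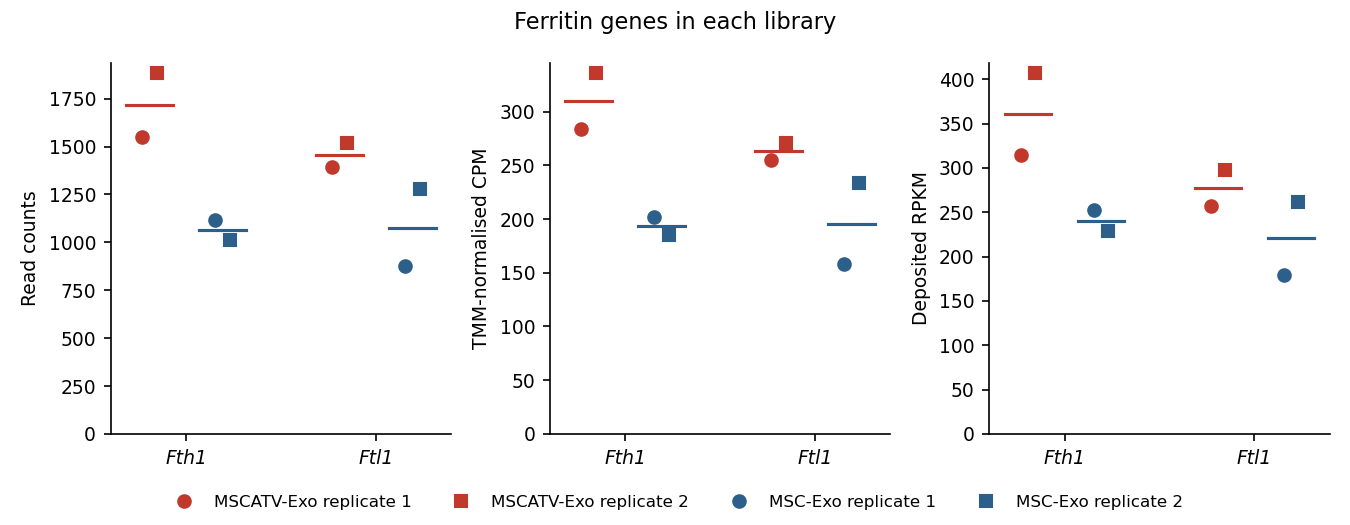
Fth1 and Ftl1 in each library as read counts, TMM-normalised CPM and deposited RPKM, with MSCATV-Exo in red, MSC-Exo in blue, circles for replicate 1, squares for replicate 2 and lines at the group means. Fth1 is separated on all 3 scales, whereas for Ftl1 the RPKM of 261 in MSC-Exo replicate 2 lies above the 257 of MSCATV-Exo replicate 1.

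The test over all genes, edgeR's quasi-likelihood test with Benjamini-Hochberg adjustment, called 0 of 33480 genes (0%) at an adjusted p under 0.05, and so none of these. An unadjusted p under 0.05 was reached by 1236 genes (3.69%). DESeq2 called 106 genes (0.317%), Fth1 among them and Ftl1, Tfrc, Aco1 and Ireb2 not. Both MSCATV-Exo libraries lay above both MSC-Exo libraries in CPM for 16.1% of all tested genes, and among the 6 tested rows for Fth1, Ftl1 and Ireb2. In the authors' deposited table, whose test is not stated, the q-value was under 0.05 for 34.3% of genes and for Fth1, Ftl1 and Ireb2, with log2 ratios of mean RPKM of 0.58, 0.33 and 1.12. In the authors' deposited table Aco1 and Tfrc stood at 0.21 and 0.20, with q-values of 0.460 and 0.524. Since these genes were put forward with the contrast in view, nothing is read from the counts of members.

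The 2 chains stood close to each other in level. The ratio of Fth1 to Ftl1 RPKM was 1.23 and 1.37 in MSCATV-Exo and 1.41 and 0.875 in MSC-Exo, so the groups overlapped. It averaged 1.22 ± 0.243 over the 4 libraries (SD, n = 4), with Fth1 higher in 3 of them. That order is of RPKM and of the 2 named rows alone. Counts were also summed over all rows described as the same chain, without scaling to length. For the light chain (Ftl1 and 29 rows) they were 2323 and 2274 in MSCATV-Exo and 1772 and 2161 in MSC-Exo. For the heavy chain (Fth1 and 4 rows) they were lower throughout, at 1672 and 1982 in MSCATV-Exo and 1202 and 1127 in MSC-Exo. Sums over unlike numbers of rows do not order the chains per length. Among the 22633 protein-coding rows ordered by RPKM, Fth1 held places 9 and 8 in MSCATV-Exo and 10 and 17 in MSC-Exo. Ftl1 held places 15 and 13 in MSCATV-Exo and 23 and 12 in MSC-Exo.

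Other abundant mRNAs also stood higher in MSCATV-Exo, which bears on how the ferritin values read. A mean RPKM of at least 100, a limit set after the values were seen, held for 73 tested protein-coding genes, Fth1 and Ftl1 included. Of these, 63 had a positive log2 fold change, with a median of 0.26, against 49.4% of all tested genes. In CPM both MSCATV-Exo libraries lay above both MSC-Exo libraries for 42 of the 73, against 16.1% of all tested genes. In that set Fth1 held place 2 and Ftl1 place 20 by log2 fold change. Both were proposed with this contrast in view, so nothing is read from these places. The genes whose RPKM profile over the 4 libraries was most like that of Fth1 were Atf5, a stress-response transcription factor, Rplp0, a ribosomal stalk protein, and Kctd10, an adaptor of ubiquitin ligases. Their largest difference from Fth1 in log2 RPKM in any library was 0.20, 0.25 and 0.35. For Ftl1 they were Ncl (nucleolin, 0.20), Lgals1 (galectin 1, 0.26) and Tpm4 (a tropomyosin, 0.31).

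Aco1 and Ireb2, the iron regulatory proteins, lay far below ferritin. Aco1 encodes the cytosolic aconitase that binds RNA when it lacks its iron-sulfur cluster (chromosome 5, 56425076 to 56481218, plus strand). It had 91 and 119 counts in MSCATV-Exo and 118 and 51 counts in MSC-Exo, and the groups overlapped. Its log2 fold change of 0.31 ± 0.52 (SE) became -0.16 without MSC-Exo replicate 2 and 1.01 without MSC-Exo replicate 1, so single libraries set its direction.

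Ireb2 encodes the regulatory protein that is degraded when iron is plentiful (chromosome 8, 59450974 to 59503634, plus strand). It had 54 and 90 counts in MSCATV-Exo and 21 and 41 counts in MSC-Exo. Its groups did not overlap in counts, CPM or RPKM, with 1.54 and 2.73 RPKM in MSCATV-Exo and 0.667 and 1.30 RPKM in MSC-Exo. The log2 fold change of 1.20 ± 0.70 (SE) was larger than that of Fth1, at a small fraction of its reads and with a wider error. Leaving out MSCATV-Exo replicate 1 gave 1.51 and leaving out MSCATV-Exo replicate 2 gave 0.81. In MSC-Exo, the values were 0.78 when replicate 1 was dropped and 1.77 when replicate 2 was dropped.

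Tfrc, which brings in transferrin-bound iron (chromosome 11, 71397423 to 71419263, minus strand), had 101 and 88 counts in MSCATV-Exo and 43 and 109 counts in MSC-Exo. The MSC-Exo libraries enclosed both MSCATV-Exo libraries. The log2 fold change was 0.31 ± 0.55 (SE), became -0.23 without MSC-Exo replicate 1 and 1.14 without MSC-Exo replicate 2. Its direction could not be resolved between these libraries.

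Slc40a1 had almost no reads. The row with identifier 108348131 (chromosome 9, 52894300 to 52913267) had 0 and 11 counts in MSCATV-Exo and 4 and 15 counts in MSC-Exo. The row with identifier 170840 (chromosome 9, 52819451 to 52830461) stood at 0 in all 4 libraries and did not pass the filter on low counts. The limit that 0 reads set is 3 reads, which is 0.504 and 0.536 CPM in the MSCATV-Exo libraries and 0.561 and 0.560 CPM in the MSC-Exo libraries, for counting error only. No fold change is given at this depth. Of the 55 protein-coding rows whose symbol carries such an identifier 23 stood at 0 throughout, against 4.82% of all protein-coding rows.

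Per length, the order of the means was Fth1 (301 ± 79.5 RPKM), Ftl1 (249 ± 49.7), Aco1 (4.99 ± 1.71), Tfrc (3.01 ± 1.03), Ireb2 (1.56 ± 0.864) and the Slc40a1 row 108348131 (0.423 ± 0.383; SD over libraries, n = 4 each). Fth1 and Ftl1 overlapped in range. The step from Ftl1 to Aco1 was the only one between neighbours with reads at which the ranges were apart. Aco1 overlapped Tfrc, Tfrc overlapped Ireb2 and Ireb2 overlapped Slc40a1. In bulk RNA of vesicles, fewer vesicles that carry an mRNA and fewer copies per vesicle cannot be told apart.

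Of these genes, the ferritin subunits alone stood clear of the levels seen for genes of an unrelated tissue. The 1516 rows described as olfactory receptors, sensory genes not expected in MSCs, had a median of 0.904 and 1.71 RPKM in MSCATV-Exo and 1.90 and 1.62 RPKM in MSC-Exo. Fth1 stood at 348 and 238 times that median in MSCATV-Exo and at 133 and 141 times in MSC-Exo. For Ftl1 it was 284 and 174 times in MSCATV-Exo and 94.4 and 162 times in MSC-Exo. MSCATV-Exo replicate 1 had the lowest olfactory receptor median, which enters its multiples.

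The other members lay within the spread of olfactory receptor genes. Aco1 reached 1.73 to 4.96 times their median over the 4 libraries, and 62.1% to 87.6% of olfactory receptor rows were below it. Tfrc was at 3.71 and 1.81 times in MSCATV-Exo and at 0.835 and 2.48 times in MSC-Exo. Ireb2 was at 1.71 and 1.60 times in MSCATV-Exo and at 0.351 and 0.805 times in MSC-Exo. The fold changes of Aco1, Tfrc and Ireb2 are thus differences among values that olfactory receptor rows also reach in these libraries.

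**Figure D2:**
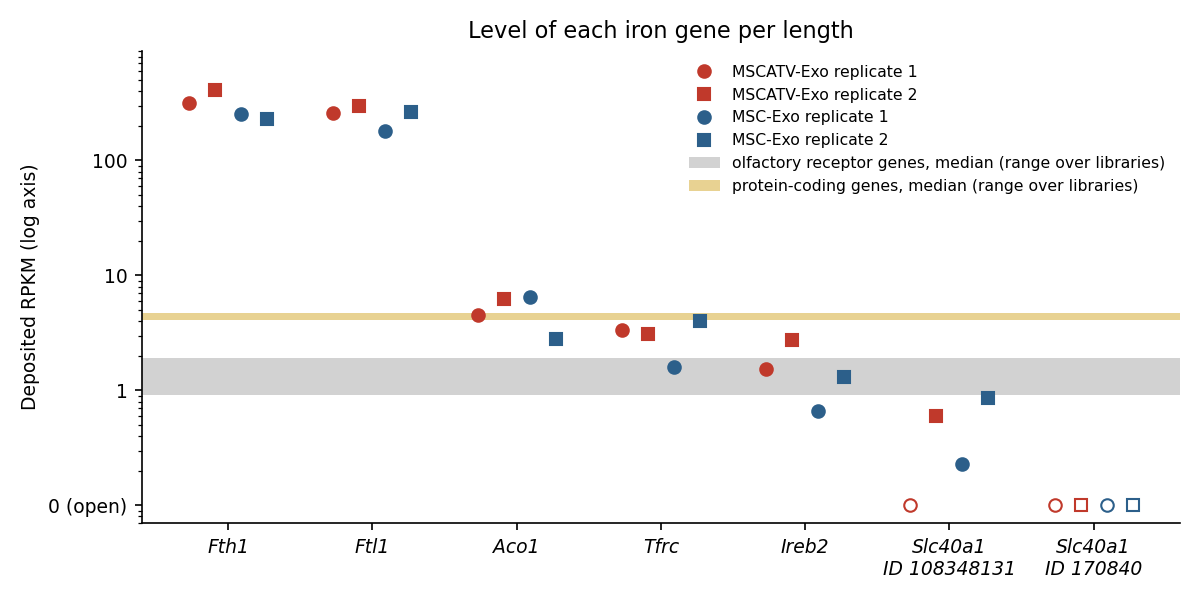
Deposited RPKM of each iron gene in each library on a log axis, with open symbols for values of 0 placed at the bottom. The grey band spans the olfactory receptor medians of the 4 libraries (0.904 to 1.90 RPKM) and the yellow band those of protein-coding genes (4.12 to 4.74 RPKM); Fth1 and Ftl1 lie far above both bands and the other genes lie around or below them.

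The spans of the 2 ferritin genes overlap those of other rows of the table, and the libraries do not mark the strand. Reads in any exon bases that rows share therefore cannot be told apart. Overlap was taken between whole gene spans, and overlap of exons was not measured. The span of Fth1 shares 83 bases with the end of Best1, a channel gene on the opposite strand, and lies inside the span of Fads2, a fatty acid desaturase gene also on the opposite strand. Their mean RPKM was 16.3 and 7.18, far below that of Fth1. Ftl1 shares 133 bases at its start with the pseudogene row ENSRNOG00000057558 on the opposite strand. That row had 121 and 193 counts in MSCATV-Exo and 76 and 99 counts in MSC-Exo, and its mean of 133 RPKM was far above the median of pseudogene rows, 2.24 to 3.08 RPKM over the 4 libraries.

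Ferritin genes have many processed pseudogenes, copies of the mRNA inserted back into the genome, and the table listed far more for the light than for the heavy chain. Besides Ftl1, 29 rows on 15 chromosomes were described as light chain, and besides Fth1, 4 rows as heavy chain. A further 4 rows, all on chromosome X, belonged to the Fthl17 family of heavy-chain relatives, and Ftmt, the mitochondrial ferritin, made up the rest.

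The heavy chain rows added little to Fth1. They held 122 and 96 counts in MSCATV-Exo and 83 and 113 counts in MSC-Exo. Fth1 thus had 92.7% and 95.2% of all heavy-chain counts in MSCATV-Exo (95% exact Clopper-Pearson intervals 91.4 to 93.9 and 94.1 to 96.1) and 93.1% and 90.0% in MSC-Exo (91.5 to 94.5 and 88.1 to 91.7). LOC108348855 had 20 and 17 counts in MSCATV-Exo and 2 and 2 counts in MSC-Exo. LOC102555403 had 23 and 34 counts in MSCATV-Exo and 20 and 16 in MSC-Exo, and LOC103691920 had 0 throughout. LOC108352322, a protein-coding row that held most of the summed counts, had 79 and 45 counts in MSCATV-Exo and 61 and 95 in MSC-Exo, and its groups overlapped. Its log2 fold change was -0.33 ± 0.58 (SE), opposite in sign to those of the other tested heavy chain rows.

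The light chain rows together held a large part of the light-chain counts. They held 929 and 754 counts in MSCATV-Exo and 896 and 883 counts in MSC-Exo. Ftl1 had 60.0% and 66.8% of all light-chain counts in MSCATV-Exo (95% intervals 58.0 to 62.0 and 64.9 to 68.8) and 49.4% and 59.1% in MSC-Exo (47.1 to 51.8 and 57.0 to 61.2). The sums of the light chain rows overlapped between the groups. The median light chain row, at 4.73 to 5.11 RPKM over the libraries, lay below the 90th percentile of olfactory receptor rows (6.88 to 7.64 RPKM). Whether the reads of these rows come from light-chain mRNA was not tested. With the counts of all 29 light chain rows, most but not all of them annotated as pseudogenes, added to Ftl1, its log2 fold change was 0.22 ± 0.18 (SE) in place of 0.43, whereas adding the heavy chain rows to Fth1 gave 0.64 ± 0.19 (SE) in place of 0.68.

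No other heavy or light chain row came near Fth1 or Ftl1. The highest light chain row, LOC103693597, averaged 17.1 RPKM, followed by RGD1560333 (12.8), LOC367190 (10.5), RGD1566189 (8.95) and LOC364842 (8.42). The parent gene stood 10.5 to 16.8 times above the highest light chain row of each library and 51.5 to 62.6 times above the highest heavy chain row. The median light chain row had 5.10 and 4.77 RPKM in MSCATV-Exo and 5.11 and 4.73 RPKM in MSC-Exo, higher than the median of all pseudogene rows in each library.

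**Figure D3:**
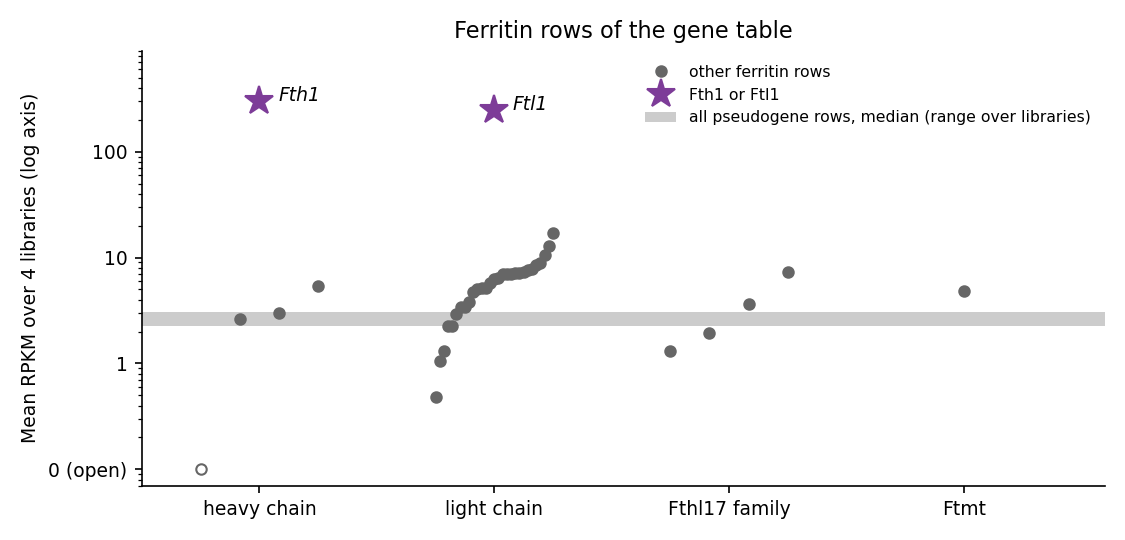
Mean RPKM over the 4 libraries of every row described as ferritin, on a log axis, with Fth1 and Ftl1 as stars, other rows as circles and an open circle for a row at 0. The grey band is the median of all pseudogene rows (2.24 to 3.08 RPKM over the libraries); the light chain rows reach at most 17.1 RPKM, below Ftl1 at 249 RPKM.

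Several of the other ferritin rows varied widely within a group. Of the 35 tested ferritin rows besides Fth1 and Ftl1, 16 had a positive and 19 a negative log2 fold change. The median was -0.16, edgeR called 0, and in CPM the groups did not overlap for 7 rows that were higher in MSCATV-Exo, where the background was 16.1%, and for 4 that were lower (17.4%). LOC367190 had 61 and 8 counts in MSCATV-Exo and 13 and 58 counts in MSC-Exo, and its groups overlapped. LOC100360087, a protein-coding light chain row named after its values were seen, had 101 and 10 counts in MSCATV-Exo and 21 and 24 in MSC-Exo. LOC108351202 was the 1 row at 0 in a whole group, with 0 and 0 counts in MSCATV-Exo and 43 and 51 in MSC-Exo. Taking 3 counts over the whole group as the floor, at library sizes scaled with TMM factors, it was at least 31.5-fold lower in MSCATV-Exo, for counting error only. It was named because it stood at 0 in a whole group, so a large difference followed from the choice. Other light chain rows, named after their values were seen, varied widely within MSCATV-Exo. LOC102550405 had 2 and 98 counts there and LOC108350937 had 30 and 0.

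The rest of the iron pathway lay on both sides of 0 and below the level of ferritin. Of 69 other iron genes 67 were tested. Of those, 35 had a positive and 32 a negative log2 fold change, so 52.2% were above 0 against 49.4% of all tested genes. The median was 0.04 against -0.01 for all genes. Scaling to total counts moved the median of all genes by -0.10 and that of the iron genes to -0.07, so the sign of the iron median rests on the scaling. By edgeR 0 passed in either direction and 0 had an unadjusted p under 0.05, and DESeq2 called 0. In the authors' deposited table, 23 of 68 had a q-value under 0.05, where the background was 34.3%. The groups did not overlap for 16 genes that were higher in MSCATV-Exo, where the background was 16.1%, and for 9 that were lower (17.4%). The median of the list was 6.05 RPKM and its highest member, Pcbp1, averaged 16.1 RPKM, against 301 for Fth1. Of the 69 genes, 54 averaged more than 3 times the olfactory receptor median (0.904 to 1.90 RPKM over the libraries). The share of all genes above that limit was not counted. Protein-coding medians were themselves 4.12 to 4.74 RPKM, so nothing is read from the 54. Still, the list median lay below the 90th percentile of olfactory receptor rows in every library (6.88 to 7.64 RPKM). Many fold changes by role below are thus also differences among values that olfactory receptor rows reach. By role, the medians for storage, for other mRNAs with an iron-responsive element and for mitochondrial genes kept their sign under all 13 alternative settings, and those for uptake, export, regulators and haem did not.

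Uptake genes had 7 of 11 higher (median log2 fold change 0.10). Lcn2, a protein that binds iron-carrying siderophores, averaged 2.87 ± 0.298 RPKM in MSCATV-Exo and 10.5 ± 1.52 RPKM in MSC-Exo (SD, n = 2 each), a log2 fold change of -1.75 ± 0.89 (SE). Hfe, which interacts with the transferrin receptor, averaged 7.18 ± 1.38 RPKM in MSCATV-Exo and 3.52 ± 1.35 RPKM in MSC-Exo. Tf (transferrin), Tfr2 (the second transferrin receptor) and Steap3 (a ferric reductase) were at log2 fold changes of -0.24, 0.10 and 0.08.

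Of the storage genes 1 of 6 was higher (median -0.20). In MSC-Exo, dropping replicate 1 gave a median of -0.40 and dropping replicate 2 gave -0.05. Ncoa4, the receptor that carries ferritin to its breakdown in lysosomes, had 86 and 48 counts in MSCATV-Exo and 91 and 106 counts in MSC-Exo, a log2 fold change of -0.56 ± 0.52 (SE), opposite in sign to Fth1. Its CPM was 15.7 and 8.56 in MSCATV-Exo and 16.4 and 19.4 in MSC-Exo. The groups did not overlap, where the background for lower genes was 17.4%. Pcbp1 and Pcbp2, chaperones that hand iron to ferritin, were at -0.05 ± 0.53 and -0.12 ± 0.36 (SE), and their relative Pcbp3 was at -0.29. Herc2, a ubiquitin ligase of Ncoa4, was at -0.34.

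Export genes had 3 of 7 higher (median -0.13). Cp, the copper oxidase ceruloplasmin that works with ferroportin, had 74 and 79 counts in MSCATV-Exo and 32 and 36 counts in MSC-Exo, a log2 fold change of 1.16 ± 0.62 (SE). Heph, a related membrane oxidase, was at -0.64 ± 0.73 (SE). Bmp6, Hfe2 and Tmprss6, which act on hepcidin, the hormone that blocks ferroportin, were at 0.06, -0.13 and 0.28.

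Regulators of the iron regulatory proteins had 4 of 7 higher (median 0.10). Fbxl5, the iron-sensing adaptor of the ligase that degrades the Ireb2 product, had 129 and 68 counts in MSCATV-Exo and 65 and 15 counts in MSC-Exo, a log2 fold change of 1.30 ± 0.72 (SE). Rbx1 and Skp1, further subunits of that ligase, were at 1.17 ± 0.59 and 0.47 ± 0.45 (SE), while Cul1, its scaffold, was at -0.25. In CPM both MSCATV-Exo libraries lay above both MSC-Exo libraries for Fbxl5, Rbx1 and Skp1, where the background was 16.1%. For 1 of the 7 both lay below (17.4%). In RPKM the groups of Fbxl5 overlapped. Narfl, which helps to build cytosolic iron-sulfur clusters, was at -0.12.

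Other mRNAs grouped as carrying an iron-responsive element had 2 of 5 tested members higher (median -0.26). Epas1, a hypoxia-inducible factor, was at a log2 fold change of 0.48 ± 0.36, Cdc14a, a phosphatase, at -0.60 ± 0.41 and Sdhb, a subunit of succinate dehydrogenase whose element is known from the fly, at 0.04 (SE). The tested members of this list thus lay on both sides of 0.

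Haem genes had 9 of 17 higher (median 0.00497). Hmox1, the haem oxygenase that frees iron from haem, had 63 and 128 counts in MSCATV-Exo and 47 and 41 counts in MSC-Exo, a log2 fold change of 1.11 ± 0.58 (SE). Alad, an early enzyme of haem synthesis, was at 0.76 ± 0.50 and Ppox, a late one, at -0.47 ± 0.39 (SE). Blvrb, a biliverdin reductase and the most abundant of the group at 14.7 RPKM, was at 0.42, and Slc48a1, a haem transporter, at -0.28.

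Mitochondrial iron and iron-sulfur cluster genes had 9 of 14 tested members higher (median 0.46). Without MSCATV-Exo replicate 1 that median was 0.16, and with limma on log2(RPKM + 1) it was 0.19. Iscu, the scaffold on which clusters are built, averaged 12.6 ± 4.37 RPKM in MSCATV-Exo and 7.78 ± 1.01 RPKM in MSC-Exo (SD, n = 2 each), a log2 fold change of 0.81 ± 0.66 (SE). Abcb10, a transporter of the inner membrane, and Slc25a37, the mitochondrial iron importer mitoferrin, were at 0.68 ± 0.38 and 0.60 ± 0.38 (SE). Isca1, a late assembly factor, and Fdxr, which supplies electrons, were at 0.37 and 0.18.

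**Figure D4:**
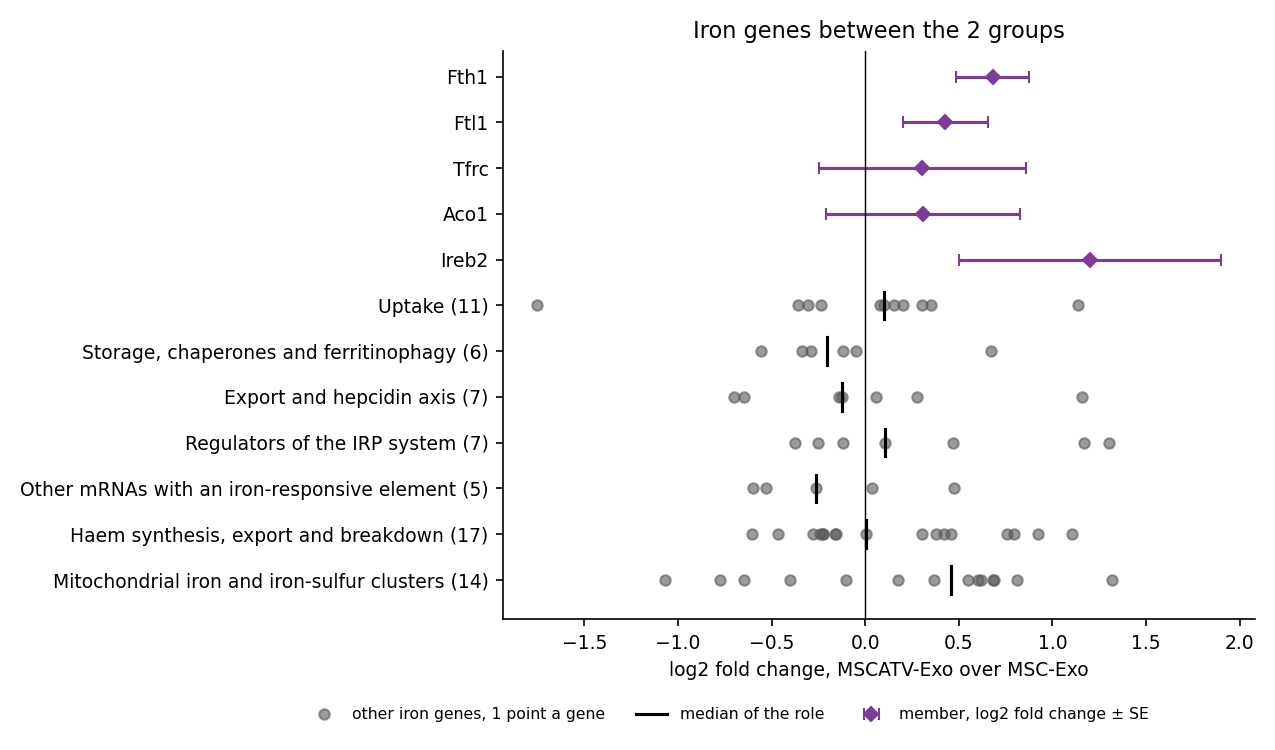
Log2 fold change of MSCATV-Exo over MSC-Exo for the 5 tested genes with more than a few reads (diamonds, bars are SE) and for each of the 67 other tested iron genes by role (circles, with a black tick at the median and the number of genes in brackets). Ferritin lies to the right of 0 with narrow bars, and the roles lie on both sides, with medians from -0.26 to 0.46; edgeR called 0 of the genes shown.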

How the data were processed

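Raw counts and RPKM of each gene are values the authors deposited, and TopHat2 with the rat builds rn6 and Rnor_6.0 is named per the submitters' processing notes; the counter and annotation release are not given in the sources used here. RPKM recomputed from counts, deposited lengths and the sum of all gene counts matched, so rRNA counts enter its denominator. The authors' deposited comparison table gives group means of RPKM, their log2 ratio with nothing added, and p-values and q-values whose test is not stated. The non-coding table, also counts and RPKM as deposited, held 0 rows of these genes. Gene sequences were not used here.

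All genes passing filterByExpr were fitted in edgeR 4.0.16 (R 4.3.3) with TMM scaling and no covariate. The two-sided quasi-likelihood test used a Benjamini-Hochberg adjusted p under 0.05 and was tested on simulated data. With 2 libraries per group, a count of 0 called genes does not show that no gene differed. Each log2 fold change has MSCATV-Exo on top and carries the SE of the fit. Alternatives were DESeq2 1.42.0, limma 3.58.1 on log2(RPKM + 1) and log2(RPKM + 0.1), RLE or no factors, 2 other filters, a replicate block, leaving out each library, counts of the other rows of a chain added to its parent gene, and, chosen after seeing the data, no rRNA rows. Reads carry no molecular identifiers, so intervals cover counting error only.

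Genes and lists were chosen with earlier results of these data known. Iron genes were named per role by the 3 highest mean RPKM and the 2 smallest edgeR p, ferritin rows by the 5 highest mean RPKM per chain or a group at 0 (at least 20 counts in the other). A gene that the rule names is not reported here. Cul1 is named beyond this rule, after its value was seen.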

Additional observations from a re-analysis of the deposited data

How the results depend on the processing

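The count of 0 genes called by edgeR became 106 with DESeq2 and 8 without a filter on low counts, and ranged from 1 to 168 with a library left out. Dropping MSCATV-Exo replicate 1 gave 27, dropping MSCATV-Exo replicate 2 gave 168, and the MSC-Exo libraries gave 1 for replicate 1 and 2 for replicate 2. It stayed 0 with RLE factors, total counts, a mean of at least 1 CPM, either limma fit and without rRNA rows. With the replicate number as a block it was 4. The deviations of same-numbered libraries correlated at -0.00405, which gave no sign of a pairing. With 1 free deviation per gene in each group, that value cannot exclude one. The median log2 fold change of the other iron genes, 0.035, was -0.071 with total counts, -0.064 with limma on log2(RPKM + 1), -0.080 with limma on log2(RPKM + 0.1), and 0.032 to 0.22 with a library left out, the highest without MSC-Exo replicate 2; the cause was not tested. The order of the iron genes per length was the same without any library and in CPM per kilobase. Relative to the protein-coding in place of the olfactory receptor median, Fth1 stood at 67.0 times, Ftl1 at 55.3, Aco1 at 1.10, Tfrc at 0.671 and Ireb2 at 0.348. Depth limits Slc40a1 most, at 30 counts over all libraries.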

Other observations

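Some iron genes were listed at 0 in particular libraries. Nfs1, the sulfur donor of iron-sulfur cluster assembly, stood at 0 in all 4 libraries, as did the second Slc40a1 row and the erythroid factor Gata1. Fdx1, a mitochondrial ferredoxin, had 0 and 24 counts in MSCATV-Exo and 10 and 27 in MSC-Exo. Of the 22633 protein-coding rows, 1091 (4.82%) were at 0 in all 4 libraries, and these included Col1a2, an abundant collagen gene of stromal cells, while Col1a1 had 27.8 and 39.4 RPKM in MSCATV-Exo and 28.7 and 41.9 RPKM in MSC-Exo. These rows were named after their values were seen.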
